A study of Mus musculus with 30 samples.

Results

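The retinal pigment epithelium (RPE) samples of this series differ in their level of Col1a1, a marker of fibrous tissue such as that behind the RPE. The 2 ends of that range are set side by side here. All 30 samples were ranked by the FPKM (fragments scaled by transcript length and mapped depth) of this gene, which encodes the alpha 1 chain of type I collagen. The 10 highest form the Col1a1-high side and the 10 lowest the Col1a1-low side, 20 of 30 samples in all, and the other 10 are called the middle samples. Each sample was RPE from 1 eye of a male wild-type C57BL/6 mouse aged 10 to 13 weeks, with 5 mice killed at each of 6 zeitgeber times: ZT0, ZT2, ZT4, ZT9, ZT14 and ZT19. No treatment or transgene is given in the labels, and zeitgeber time, eye and animal number are the labels that vary among the mice. Of 51904 genes in the table, 16741 reached 1 FPKM in at least 5 samples and were compared. Because a measured value of the same libraries chose the sides, every difference between them below is a description and carries no test.

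Stroma is the connective tissue of the choroid and the sclera, which lie directly behind the RPE in the eyecup. Fibroblasts of this tissue secrete type I collagen, whose chains come from Col1a1 and Col1a2, and decorin (Dcn), a small proteoglycan that binds collagen fibrils. The RPE itself is an epithelium on the inner side of the choroid, facing the photoreceptors, and it regenerates the visual pigment and takes up shed outer segments. Per the labels' protocols, the eyecup was kept in RNAlater and clumps of pigmented cells were lifted off the choroid with forceps, so neighbouring tissue could come along. In such bulk samples, fewer cells of a type and less RNA per cell cannot be told apart. Which tissue the Col1a1 RNA came from was not tested.

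The deposited files give no read counts. Depth estimated from the steps between low FPKM values was 12.45 to 22.91 M reads (M: mega) per sample, with a median of 20.3 M on the Col1a1-high side and 17.0 M on the Col1a1-low side. One library stood apart: ZT14 replicate 3, which also had the highest Col1a1 value. It listed 12754 genes above 0, against 16723 to 19374 in the others, and 537 genes at 0 whose median over all samples was at least 10 FPKM, against 1 to 22. A listed 0 can be a failed estimate in this table: the mitochondrial gene mt-Co2 and the immediate early genes Junb and Jund were at 0 in all samples. Some results are therefore also given without ZT14 replicate 3, with the remaining 29 samples ranked again, so that ZT4 replicate 2 took the free place. Unless stated, the values below include ZT14 replicate 3.

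Col1a1 (chromosome 11, 94936224 to 94953042, plus strand, mm10) ranged from 48.9 to 395 FPKM over the 30 samples. On the Col1a1-high side it lay between 202 and 395 FPKM with a median of 298. On the Col1a1-low side it lay between 48.9 and 131 FPKM with a median of 94.1. The boundaries fell in a continuous series of values: the last sample inside the high side had 201.7 FPKM and the next outside it 201.1, and the first inside the low side had 131 FPKM and the next outside it 136. The sides are thus the ends of a range and not separate clusters.

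The other chain of type I collagen, Col1a2 (chromosome 6), followed Col1a1 with some overlap. It lay between 199.9 and 437 FPKM with a median of 236 on the Col1a1-high side, and between 93.5 and 229 FPKM with a median of 131 on the Col1a1-low side. The difference in mean log2(FPKM + 1) was 1.03, and the high sample exceeded the low one in 95 of the 100 possible pairs of a high with a low sample. In 3 high samples Col1a2 stood near 400 FPKM or above (ZT4 replicate 3, ZT9 replicate 5 and ZT14 replicate 4), and in the other 7 it was 199.9 to 256 FPKM. Decorin (chromosome 10) lay between 938 and 1499.5 FPKM with a median of 1139 on the Col1a1-high side. On the Col1a1-low side it lay between 634 and 976 FPKM with a median of 756, a difference of 0.61 on the log2 scale with 98 of 100 pairs higher. Dcn was the more abundant transcript per length in every sample, and its spread was the narrower.

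**Figure D1:**
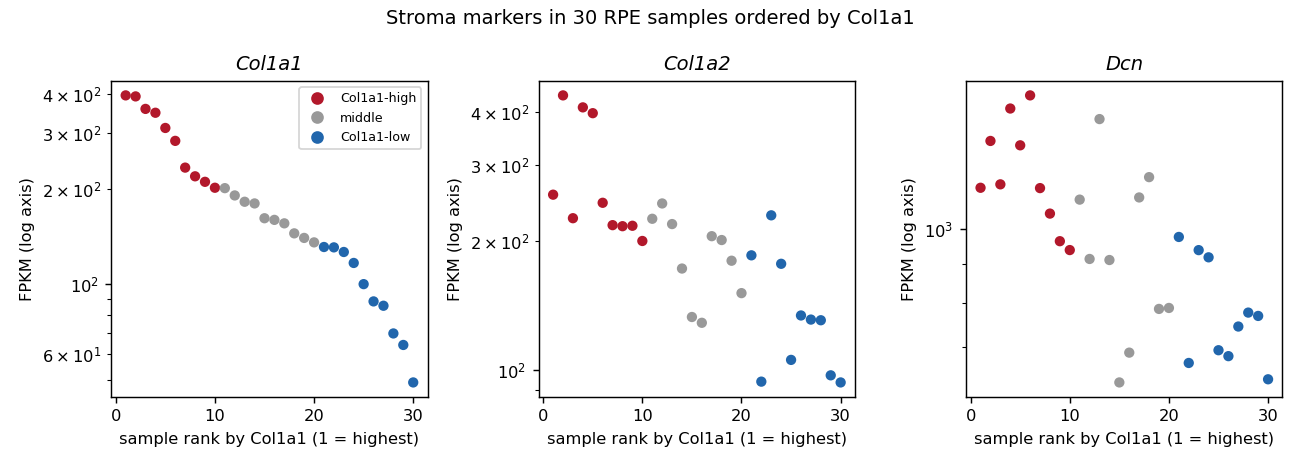
FPKM (log axis) of Col1a1, Col1a2 and Dcn in each of the 30 samples, ordered by Col1a1 from the highest (rank 1) to the lowest (rank 30); red points are Col1a1-high, grey middle and blue Col1a1-low samples. Col1a2 and Dcn decline along the order with overlap between sides, from medians of 236 and 1139 FPKM on the high side to 131 and 756 FPKM on the low side.

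The ratio of the type I collagen chains does not depend on how a library was scaled, but its numerator is the value that ranked the samples, so a higher ratio on the high side follows in part from the choice of sides and is given as a description. Col1a1 over Col1a2 in FPKM was 0.784 to 1.58 on the Col1a1-high side with a median of 1.01, and 0.524 to 1.39 on the Col1a1-low side with a median of 0.659. The highest ratios were in ZT4 replicate 4 with 1.58 and ZT14 replicate 3 with 1.54, both of them high samples with Col1a2 near the middle of that side. On the low side ZT4 replicate 1 with 1.39 and ZT0 replicate 1 with 0.948 lay within the range of the high side. Col1a2 over Dcn, in which Col1a1 has no part, overlapped widely, at 0.164 to 0.335 on the high side and 0.126 to 0.245 on the low side.

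The data bear out the name stroma-rich only in part, and the sides are called by the gene that chose them. Ranking the 30 samples by Col1a2 instead kept 6 of the 10 Col1a1-high and 7 of the 10 Col1a1-low samples in place, and moved 1 Col1a1-low sample among its 10 highest. Ranking by Dcn kept 7 and 7, with none crossing over. Samples were also ranked by the mean log2(FPKM + 1) of the compared fibrillar collagen and small leucine-rich proteoglycan genes other than Col1a1. This ranking kept only 4 and 6. It put 2 Col1a1-low samples, ZT14 replicate 5 and ZT9 replicate 1, among its 10 highest.

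Fibrillar collagens, which form the load-bearing fibrils of stroma, were higher on the Col1a1-high side in 9 of 11 members, with a median difference of 0.42 on the log2 scale. The 11 members include Col1a1, which chose the sides and was therefore higher by the rule. Over all 16741 genes the mean difference was above 0 in 7577, which is 45.3%, and below 0 in 9164, which is 54.7%, and the median difference was -0.04. Col3a1, which co-assembles with type I collagen, had medians of 181 and 110 FPKM, and its sides overlapped widely (110.8 to 254 and 68.5 to 240.4 FPKM). The type V chains Col5a1 and Col5a2, which set fibril diameter, differed by 0.39 and 0.42. Col2a1, the fibrillar collagen of cartilage, was lower on the high side, with medians of 3.22 and 6.11 FPKM and a difference of -0.73, though only 33 of 100 pairs were higher and the sides overlapped.

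Among the other collagens, 21 of 29 compared members were higher and the median difference was 0.21, which turned to -0.04 when libraries were scaled to RPE markers. The fibril-associated collagen Col12a1 had medians of 56.3 and 31.2 FPKM, with 89 of 100 pairs higher. Col14a1, of the same family, had medians of 19.5 and 11.8 FPKM with 86 pairs. The beaded-filament chains Col6a1 and Col6a2 differed by 0.50 and 0.58, with 90 and 89 pairs. Col22a1, known from muscle-tendon junctions, differed by 1.11 at low levels, with medians of 2.99 and 0.293 FPKM and a listed 0 in ZT14 replicate 3. Of the basement membrane collagens, Col4a1 was higher by 0.56 in 81 pairs, and Col4a2, its partner chain, by 0.21 in 66 pairs. Col26a1 went the other way, at or below 1.28 FPKM on the high side and up to 5.96 FPKM on the low side.

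Small leucine-rich proteoglycans, the family of decorin that coats collagen fibrils, had the largest median of the matrix lists, 0.52, with 12 of 14 compared members higher. Biglycan (Bgn) lay between 238 and 584 FPKM with a median of 399 on the high side, and between 129 and 423 FPKM with a median of 218 on the low side. Fibromodulin (Fmod), abundant in tendon and sclera, had medians of 156 and 88.9 FPKM with 89 of 100 pairs higher. Chondroadherin (Chad), of cartilage and tendon, passed a 2-fold difference, with medians of 59.3 and 26.0 FPKM. At least 2-fold means a difference of 1 or more in mean log2(FPKM + 1); 97 of all genes were higher by this measure, which is 0.579%, and 411 lower, which is 2.46%. Lumican (Lum), shared by sclera and corneal stroma, differed by 0.55, and keratocan (Kera), of the cornea, by 0.86 at levels of 16.5 FPKM or less.

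Of the elastic fibre and microfibril genes, 15 of 16 were higher, with a median of 0.28 (-0.07 when scaled to RPE markers) and no member past 2-fold. Emilin1 and Ltbp2, which attach to elastic fibres and microfibrils, differed by 0.83 and 0.89, with 86 and 76 of 100 pairs higher. Elastin (Eln) itself hardly differed, with medians of 18.2 and 18.7 FPKM, and neither did fibulin-2 (Fbln2) at -0.05. The adhesive glycoproteins showed a similar division, with 17 of 20 compared members higher and a median of 0.32. Matn4, a matrilin, had medians of 28.1 and 10.8 FPKM, and Cilp2, of cartilage and joint matrix, 10.5 and 4.59 FPKM, both past 2-fold. Thrombospondin 2 (Thbs2) and Sparc, which take part in collagen fibril assembly, were higher in 91 and 90 pairs, Sparc with medians of 694 and 443 FPKM. Fibronectin (Fn1) did not go along, with medians of 46.9 and 48.2 FPKM. Vitronectin (Vtn) was the one matrix gene that was lower in at least 80 of 100 pairs: it lay between 25.3 and 95.3 FPKM on the high side and between 25.2 and 321 FPKM on the low side, with medians of 64.2 and 113.

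Genes for the making of collagen differed by less, with a median of 0.14 (-0.17 when scaled to RPE markers, 0.08 without ZT9 replicate 5) and 15 of 22 compared members higher. Lox, the enzyme that crosslinks collagen and elastin, was the clearest, at 6.26 to 16.3 FPKM on the high side and 2.78 to 10.4 FPKM on the low side, with 94 of 100 pairs higher. Pcolce, an enhancer of procollagen cleavage, lay between 186 and 429.9 FPKM on the high side and between 184 and 299 FPKM on the low side, with 89 pairs. Serpinh1, the collagen chaperone, differed by 0.46. The prolyl and lysyl hydroxylases differed among themselves: P3h3 was higher by 0.47 in 80 pairs, P4hb differed by -0.14, Plod1 by 0.02 and Plod3 by -0.05, and P4ha3 was lower by 0.50 on the log2 scale. Among 17 matrix proteases and inhibitors only 9 were higher, with a median of 0.08, but cathepsin K (Ctsk), a collagen-degrading protease, was higher in 95 of 100 pairs, with medians of 56.3 and 31.7 FPKM. Mmp3, stromelysin 1, was higher in 92 pairs, with medians of 61.2 and 28.3 FPKM.

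Taking the 6 matrix lists as one (fibrillar and other collagens, leucine-rich proteoglycans, elastic fibre, adhesive and collagen-processing genes), 112 of 117 genes passed the filter and 89 of these were higher. Without Col1a1, 88 of 111 were higher, 5 were at least 2-fold higher and none 2-fold lower. A looser measure, chosen after it was seen that Col1a1 alone had sides that did not overlap, asked for at least 80 of 100 pairs. By it 24 of these 111 were higher, where 360 of all genes (2.15%) were, and 1 was lower, where 294 of all genes (1.76%) were. No gene other than Col1a1, which chose the sides, was higher in every high than in every low sample (0.00597% of genes), and none was lower in every one (0%). The 5 genes outside the filter were Col19a1, Podnl1, Acan, Matn1 and Adamts14, with highest values of 0.469 to 5.87 FPKM.

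Fibroblast markers moved with the matrix in 25 of 30 members, with a median of 0.36. Serpinf1, the gene for the antiangiogenic factor PEDF that RPE and fibroblasts both secrete, had medians of 358 and 223.7 FPKM and 91 of 100 pairs higher. The insulin-like growth factor binding proteins Igfbp4 and Igfbp5 differed by 0.61 and 0.43, in 84 and 85 pairs. Vimentin (Vim) and Thy1, which mark mesenchymal cells in general, hardly differed: Vim had medians of 551 and 542 FPKM, and Thy1 differed by 0.03. Ly6a, a marker of progenitor-like fibroblasts and also of endothelium and epithelium, was lower, with medians of 236 and 363 FPKM. Among 19 genes of TGF-beta and BMP signalling, which drives collagen synthesis in fibroblasts, 15 were higher with a median of 0.20. Their receptor gene Tgfbr2 was higher in 97 pairs, at 26.3 to 43.1 FPKM against 14.0 to 26.9 FPKM. The Wnt antagonist Sfrp2, secreted by fibroblasts, lay between 41.8 and 141 FPKM against 12.9 to 79.3 FPKM, a difference of 1.23, but of the 8 Wnt modulators 5 were higher and 3 lower, with a median of 0.03.

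**Figure D2:**
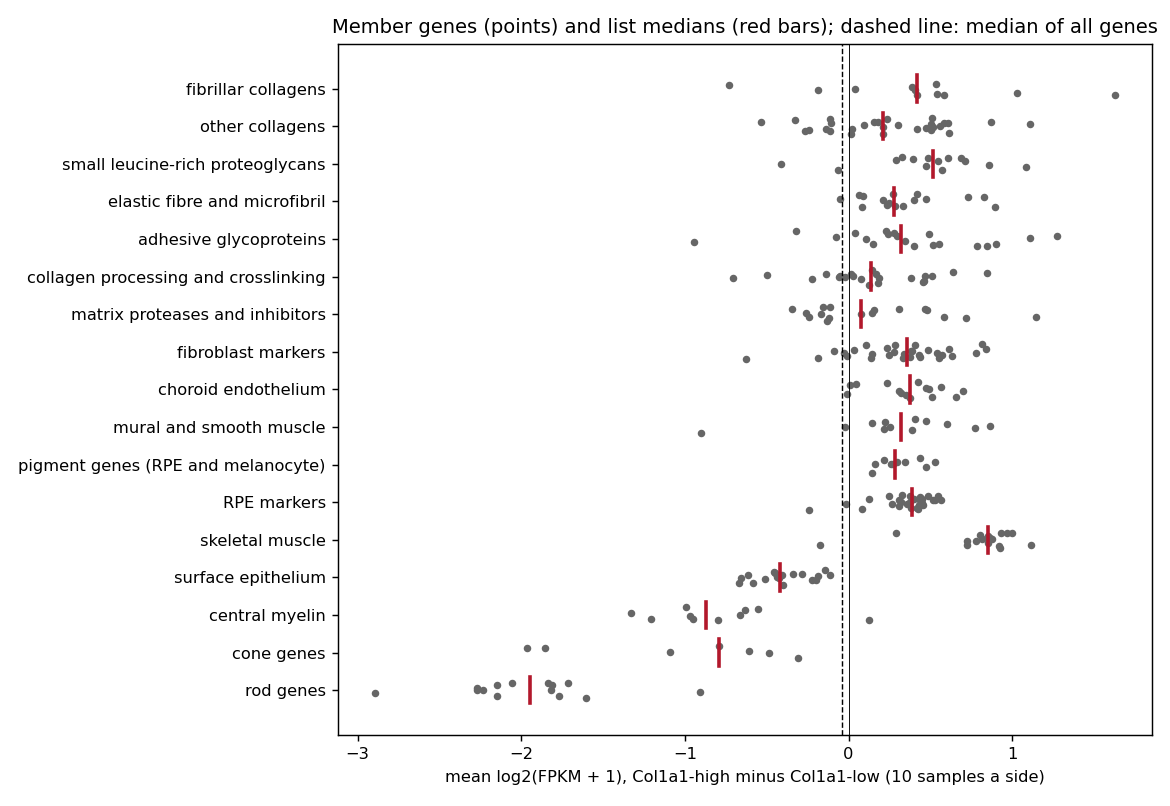
Difference between the Col1a1-high and Col1a1-low sides (10 samples each) in mean log2(FPKM + 1), 1 point per gene, for 17 gene lists; red bars are list medians and the dashed line is the median of all 16741 genes, -0.04. The fibrillar collagen list includes Col1a1, which chose the sides. Matrix, fibroblast, vessel, pigment, RPE and muscle lists lie to the right of it, and surface epithelium, myelin, cone and rod lists to the left; scaled to RPE markers, other collagen, elastic fibre, collagen processing, pericyte and pigment medians fall below 0 (-0.17 to -0.01).

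Other genes were named by the size of their difference among those past 2-fold whose quartiles were apart, 15 in each direction, and many of them were listed at 0 in part of the samples. Among the 15 largest was Coq4, a gene of ubiquinone synthesis, whose difference of 1.77 included a value of 964 FPKM in ZT14 replicate 3 beside 9.43 to 36.0 FPKM in the other 9 high samples. Mdn1, a ribosome assembly factor, had medians of 13.4 and 3.92 FPKM, and 89 of 100 pairs were higher. The myosin chaperone Unc45b and the sarcomere gene Lmod3 were also among them, with 95 and 91 pairs. Among the 15 smallest were Pdc, a phototransduction gene, and several genes of neurons. Rab3a, of synaptic vesicles, lay between 0 and 32.0 FPKM on the high side and between 9.86 and 44.1 FPKM on the low side, and Grin1, a glutamate receptor subunit, had 5 of 10 high samples listed at 0. Pla2r1, a phospholipase receptor, was lower in 97 pairs, with 0 to 4.99 FPKM against 3.18 to 35.1 FPKM. Ackr1, a chemokine-binding receptor of venules, was lower in 91 pairs, with 4 high samples listed at 0.

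RNA of other tissues moved with the sides. RNA of the labelled tissue was present in every sample of both sides. Rpe65, the visual cycle isomerase that defines RPE, lay between 756 and 1648 FPKM on the high side. On the low side it lay between 336 and 1372 FPKM. Its medians of 934 and 753 FPKM were below those of muscle Mylpf and corneal Krt12, given below, on both sides. Of 28 RPE markers 26 were higher on the Col1a1-high side, with a median of 0.39, close to that of the fibroblast markers. Their summed FPKM was 15114 to 27185 with a median of 17772 on the high side, and 8828 to 23438 with a median of 13238 on the low side. No RPE marker was past 2-fold, and Trpm1 alone was higher in at least 80 of 100 pairs. Best1, a chloride channel of RPE, stayed at or below 2.02 FPKM on both sides. All 10 pigment genes, shared by RPE and choroidal melanocytes, were higher with a median of 0.28 (-0.05 when scaled to RPE markers, 0.17 without ZT4 replicate 1 and 0.19 without ZT0 replicate 5), among them Tyrp1 with medians of 883 and 675 FPKM.

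Vessel genes were higher as well. In the endothelial list 14 of 15 were, with a median of 0.38; Cdh5, the cadherin of endothelial junctions, lay between 11.0 and 26.3 FPKM against 5.41 to 17.9 FPKM. Their summed FPKM was 483 to 989 on the high side and 351 to 749 on the low side. Pecam1, the usual endothelial marker, overlapped widely at 7.95 to 42.0 and 12.0 to 29.6 FPKM, with its lowest high value in ZT14 replicate 3. Of 12 pericyte and smooth muscle genes 10 were higher, with a median of 0.32 (-0.01 when scaled to RPE markers); Pdgfrb and Abcc9, of pericytes, were so in 91 pairs each, and Cnn1, of contractile smooth muscle, differed by -0.90.

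Skeletal muscle genes had a larger median than any matrix list, 0.85, with 17 of 18 higher and 11 of them in at least 80 of 100 pairs. Mylpf, the regulatory light chain of fast fibres, lay between 1321 and 9847 FPKM with a median of 3368 on the high side, and between 1100.4 and 3854 FPKM with a median of 1689 on the low side. Casq1, which stores calcium in fast fibres, had medians of 130.3 and 56.4 FPKM. The summed FPKM of the list was 4784 to 30273 on the high side and 3736 to 13336 on the low side. The exception was Myh13, the myosin of extraocular muscle, at -0.17. Without ZT14 replicate 3 the median of this list was 0.61. Without that sample, the fibrillar collagen list, which includes Col1a1, and the leucine-rich proteoglycan list had medians of 0.48 and 0.53.

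Retinal and epithelial RNA went the other way. All 14 rod genes were lower on the Col1a1-high side, 13 of them at least 2-fold, with a median of -1.95. The mean level of the 14 genes overlapped between the sides over most of its range, on the log2(FPKM + 1) scale: it was 1.42 to 7.93 with a median of 3.93 on the high side, and 2.03 to 9.23 with a median of 7.43 on the low side. ZT2 replicate 4 was a high sample with 7.93, and ZT0 replicate 1 a low one with 2.03. No rod gene was lower in at least 80 of 100 pairs. All 7 compared cone genes and all 18 genes of corneal and conjunctival epithelium were lower too, with medians of -0.79 and -0.42, the latter turning to 0.09 when samples were scaled to RPE markers and ranked anew. Krt12, the corneal keratin, had medians of 1653 and 2469 FPKM and wide ranges of 61.4 to 4591 and 116 to 4462 FPKM. The Krt12 difference of -0.51 on the log2 scale turned to 0.51 after regression on the muscle level. It was -2.75 and -2.62 when samples were ranked by Col1a2 and by Dcn. Of 10 central myelin genes 9 were lower, with a median of -0.87 (0.28 when ranked by Col1a2); without ZT14 replicate 3, whose Mobp was the highest of its side with 1374 FPKM, this median was -1.27, and without ZT14 replicate 5, a low sample with 1870.4 FPKM, it was -0.57.

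**Figure D3:**
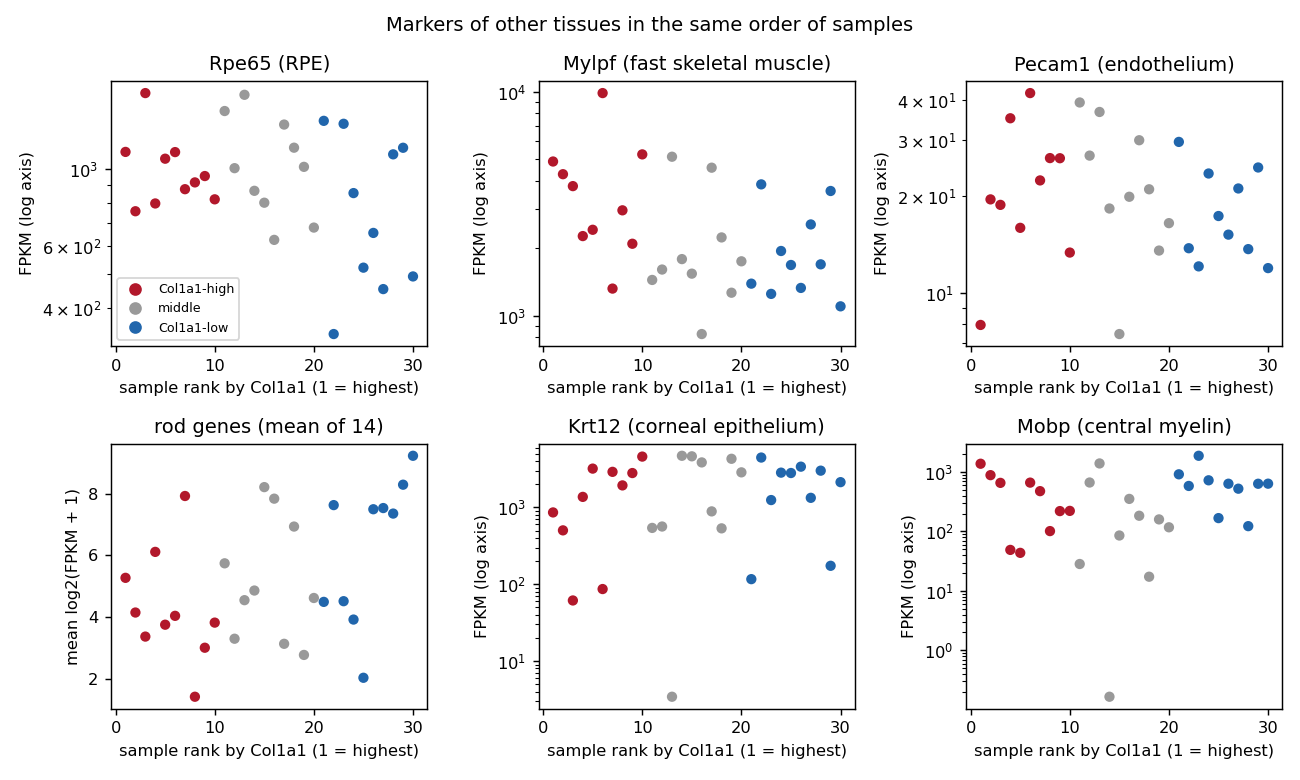
FPKM (log axis) of markers of RPE, fast skeletal muscle, endothelium, corneal epithelium and central myelin, and the mean log2(FPKM + 1) of the 14 rod genes (linear axis), in the 30 samples, in the order of Col1a1 (rank 1 is the highest); red, grey and blue points are Col1a1-high, middle and Col1a1-low samples. Mylpf is higher at the left, with medians of 3368 and 1689 FPKM on the high and low sides, and the rod mean lower, with medians of 3.93 and 7.43, while every panel shows overlap.

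Further lists moved less or in single genes. Of 13 immediate early genes, which respond within minutes to handling and other stimuli, 11 were lower; Fos lay between 0 and 15.8 FPKM on the high side and between 7.22 and 35.2 FPKM on the low side, and was higher in only 8 of 100 pairs. Mitotic genes were lower in 16 of 20, with a median of -0.39. In this list 13 of 20 genes (65%, against 8.67% of all genes) had an unadjusted p below 0.05 among time points in limma. Of these, 1 was past the adjusted threshold. By the same unadjusted measure it was 13 of 18 surface epithelium, 8 of 18 muscle, 4 of 5 blood, 8 of 28 RPE and 0 of 14 rod genes. None of those was past the adjusted threshold. The summed FPKM of the mitotic list was 98.1 to 354 at ZT0, which gave 1 high and 3 low samples, and 43.5 to 69.1 at ZT19. The part of time in the side differences of these lists was not tested. The core clock list was even, with 10 of 20 higher and a median of 0.01. In the blood list all 5 compared genes were higher, with a median of 0.28, and the immune list had a median of 0.10. The part of rod, muscle and RPE RNA in the differences of matrix genes was not tested as a cause. The differences were recomputed after regression on the rod or muscle level, or with RPE markers as the scale. These settings were chosen after these lists were seen to move.

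Each gene was regressed on the mean log2 level of the rod list over all 30 samples, without side in the fit. Because this level differed between the sides, such a regression can also take out part of the side difference. On what remained, the medians of the fibrillar collagen list, which includes Col1a1, and of the leucine-rich proteoglycan list were 0.31 and 0.33. The same regression on the muscle list gave 0.34 and 0.32. Col1a2 then differed by 0.78 and 0.83, and Dcn by 0.47 and 0.39. Scaling each library to its RPE markers on the same sides lowered the median of all genes to -0.32. On that scale fibrillar collagens and leucine-rich proteoglycans kept medians above 0, at 0.19 and 0.18, while other collagens (-0.04), elastic fibre genes (-0.07), collagen processing genes (-0.17), pericyte and smooth muscle genes (-0.01) and pigment genes (-0.05) turned below 0. Against the shifted median of all genes these lists still stood above, by 0.28, 0.26, 0.15, 0.32 and 0.27. On the same scale Col1a1, Col1a2 and Dcn were higher by 1.29, 0.69 and 0.26.

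**Figure D4:**
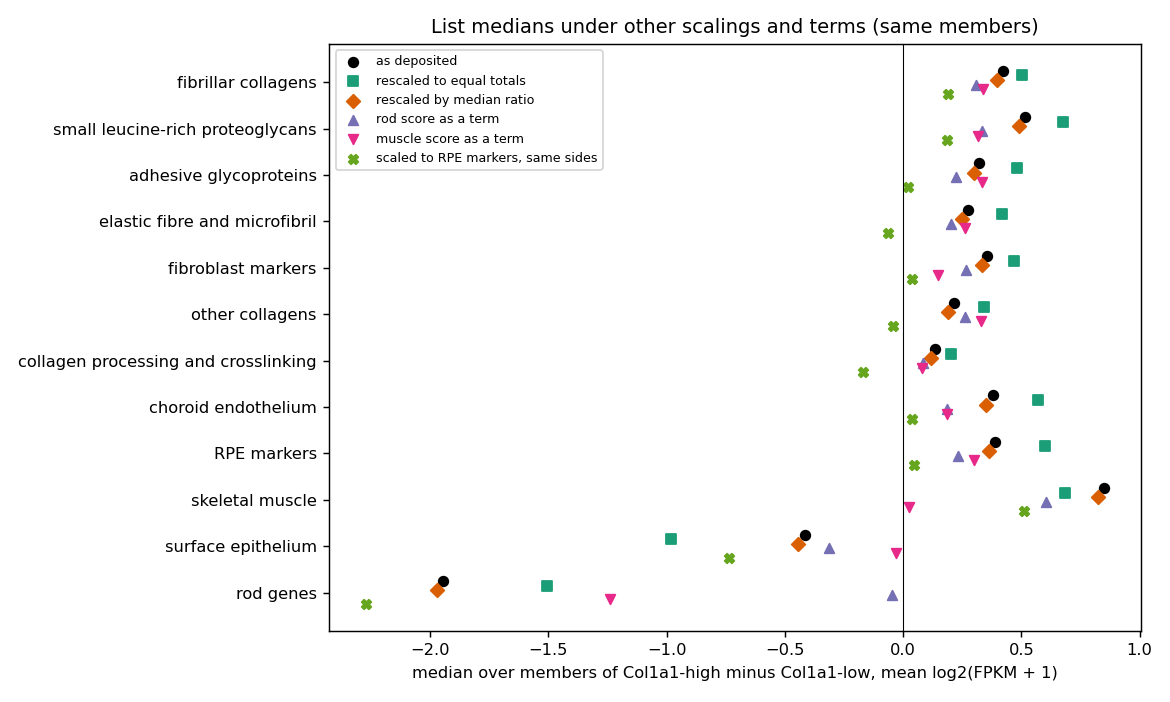
Median over the members of 12 gene lists of the difference between Col1a1-high and Col1a1-low samples in mean log2(FPKM + 1), as deposited (black) and under 5 other settings. These were scalings, or regressions of each gene on the rod or muscle score, labelled in the figure as terms. Fibrillar collagens and leucine-rich proteoglycans lie above 0 throughout, at 0.19 and 0.18 when scaled to RPE markers, while elastic fibre, other collagen and collagen processing genes cross 0 there (-0.07, -0.04 and -0.17). The fibrillar collagen list includes Col1a1, which chose the sides, in every setting.

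The labels of the mice were not used to choose the sides, so they could be tested. On the Col1a1-high side there was 1 sample of ZT0, 2 each of ZT2, ZT4, ZT9 and ZT14, and 1 of ZT19. On the Col1a1-low side there were 3 of ZT0, 2 of ZT2, 1 of ZT4, 1 of ZT9, 2 of ZT14 and 1 of ZT19. Every time point thus stood on both sides, and a two-sided permutation test of the chi-square statistic gave p = 0.958 (adjusted p = 1 over 3 labels). The high side held 5 left and 5 right eyes and the low side 6 left and 4 right (Fisher's exact test, two-sided, p = 1, adjusted p = 1). Mean animal number was 851 ± 20.6 (SD, n = 10) on the high and 838.5 ± 23.9 on the low side (two-sided permutation test, p = 0.2396, adjusted p = 0.719). What the animal number marks is not given. With 10 samples a side, a modest imbalance would pass unseen, and these p values do not show that the sides are balanced.

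The stroma markers varied widely among the mice of each time point. Col1a1 in the 5 mice of ZT0 was 48.9, 88.2, 100.05, 136 and 211 FPKM. At ZT4 it was 131, 179.9, 201, 358 and 392 FPKM. At ZT14 it was 69.9, 126, 191, 312 and 395 FPKM, the widest spread of any time point. The means were 117 ± 60.9 FPKM at ZT0, 159 ± 60.3 at ZT2, 252 ± 115 at ZT4, 199.96 ± 89.6 at ZT9, 219 ± 133 at ZT14 and 166 ± 79.1 at ZT19 (SD, n = 5 each). ZT0 had the lowest mean and 3 of its 5 mice on the low side, and its range overlapped with that of every other time. In limma's moderated F test among time points the adjusted p was 0.735 for Col1a1, 0.767 for Col1a2 and 0.663 for Dcn. The 24 h cosine gave 0.687, 0.609 and 0.752 in limma, with fitted amplitudes of 0.39, 0.32 and 0.15 on the log2 scale.

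**Figure D5:**
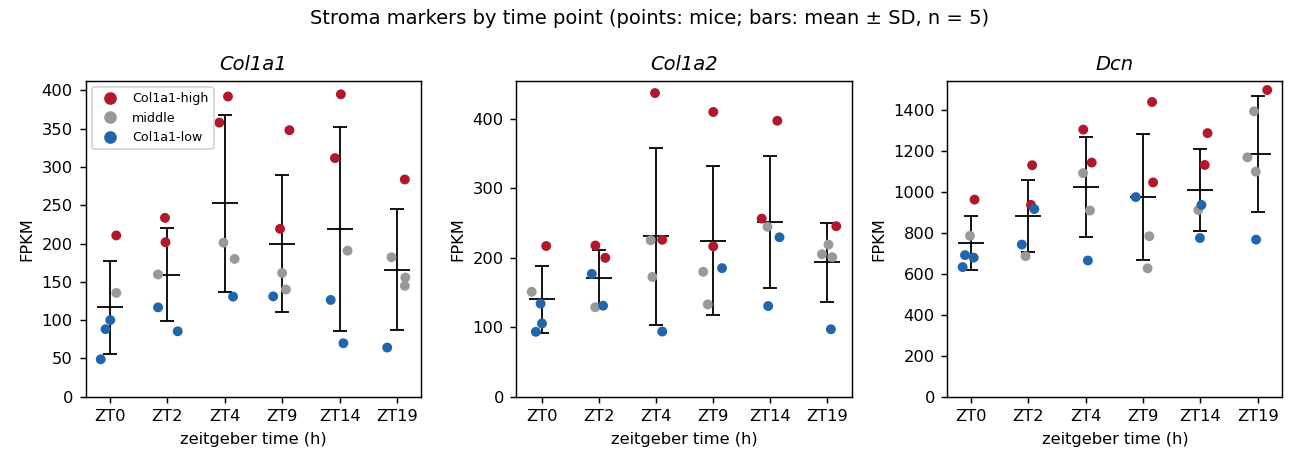
FPKM of Col1a1, Col1a2 and Dcn at each zeitgeber time; points are single mice coloured by side (red Col1a1-high, grey middle, blue Col1a1-low) and black bars are the mean ± SD of 5 mice. Each time point holds red and blue points, and for Col1a1 the means run from 117 FPKM at ZT0 to 252 FPKM at ZT4 with overlapping ranges.

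None of the 112 matrix genes passed the adjusted threshold of 0.05 in limma's tests, where 12 of all genes (0.0717%) passed for time points and 18 (0.108%) for the cosine. At an unadjusted p below 0.05 there were 9 matrix genes for time points and 12 for the cosine, 8.04% and 10.7% of the list, against 8.67% and 8.76% of all genes. By single list, the share for time points ran from 0% of elastic fibre and collagen processing genes to 21.4% of leucine-rich proteoglycans (3 of 14). It was 18.2% of fibrillar collagens (2 of 11). For right against left eyes, with time in the fit because all ZT4 samples were left eyes, no gene of the table passed (0%). An unadjusted p below 0.05 was found in limma for 1855 genes (11.1%) and for 8 matrix genes (7.14% of the list). By single list, this share ran from 0% of fibrillar collagen and elastic fibre genes to 28.6% of leucine-rich proteoglycans (4 of 14). Col1a1 was 0.40 ± 0.32 (SE) higher in right eyes on the log2 scale (limma, adjusted p = 0.651), with 0.21 without ZT14 replicate 3, 0.71 without ZT19 replicate 2 and 0.06 without time in the fit.

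A few genes with a significant 24 h cosine also differed between the sides, and these genes had been picked as rhythmic from the same samples. Angptl7, a secreted factor of corneal stroma and the outflow tissue of the eye, had medians of 54.0 and 28.9 FPKM, and Ctgf, a matricellular factor induced by TGF-beta, 265 and 118 FPKM, with differences of 1.03 and 0.81. With each sample's log2 Col1a1 added to the limma fit, the adjusted p of the cosine went from 2.23e-04 to 6.20e-07 for Angptl7 and from 0.0203 to 0.00925 for Ctgf. Mmp14, a membrane-bound collagenase that differed by -0.11 between the sides, went from 0.0403 to 0.0533 and Leo1, a transcription elongation factor, from 0.0203 to 0.0801, so both lost their calls. The number of genes called was 20 with the Col1a1 term and 18 without.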

How the data were processed

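RPE RNA of 30 mice was sequenced as single reads of 75 bp with a stated average of 20 M reads (M: mega), per the labels' protocols. Per the submitters' processing notes, the tools were STAR, Cufflinks and DESeq2 and the build was mm10; the notes give no version, role or order. The deposited table holds the authors' FPKM with decimal commas, so no count test applied, and any other treatment of the values is not given in the sources used here. The unit was checked on the values, which were 0 or above. Replicate numbers follow accession order and pair nothing. Each mouse is its own sample, and no 2 columns were identical. Gene coordinates were taken from GENCODE M21 (GRCm38, which is mm10), where 51625 of 51904 gene IDs were found.

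Genes with at least 1 FPKM in at least 5 samples were analysed as log2(FPKM + 1), on which changes of low genes are understated. Sides were described by their values, by a 2-fold difference in means and by pairs. Labels were tested with 100000 permutations or Fisher's exact test. Time and eye were tested over all genes with limma 3.58.1 in R 4.3.3, with Benjamini-Hochberg adjustment at 0.05. Other steps used Python 3.11.15, pandas 2.3.3 and SciPy 1.17.1. Both kinds of script were tested on simulated data. Depth was estimated from single-transcript genes with the 1 of 6 corrections to their length that gave the most values at whole reads (11268 of 39110). It is not a deposited count, so no counting interval is given.

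The sides, the gene lists and the measures were chosen with earlier results of these data known. Named genes were the 3 markers, the 15 largest and 15 smallest differences, the largest members of each list (6 for matrix lists, 3 for others) and defining markers of other tissues. Members named beyond these were chosen after their values were seen. Only Col1a1 had sides without overlap, so the largest and smallest were filled from genes past 2-fold with separate quartiles. Alternatives were other ranking genes, side sizes, scalings, filters and pseudocounts, and each sample left out in turn. Settings added after the data were seen were scaling to RPE markers, regression on rod and muscle levels, and the pair measure. Some results are not reported here.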

Additional observations from a re-analysis of the deposited data

Results flagged for a closer look

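Of 40 groups of samples examined for a single value far from the rest, 5 had one, where chance gives about 1 in 20. Each value below is the gap to the nearest sample as a share of the whole range. In the Col1a1-high samples, ZT14 replicate 3 stood apart in the number of genes above 0 (12754, gap 0.676) and in the number of usually present genes listed at 0 (537, gap 0.966). In the Col1a1-low samples, ZT0 replicate 4 had the most genes above 0 (19374, gap 0.488). ZT19 replicate 1 had the lowest Col1a2 of its time point (97.1 FPKM, gap 0.784), and ZT4 replicate 4 the highest Rpe65 of the Col1a1-high side (1648 FPKM, gap 0.498).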

How the results depend on the processing

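No paired analysis was possible because the labels give the mice no shared replicate numbers. Counts are given as higher and lower, in the order no overlap, at least 2-fold, and at least 80% of pairs; as deposited they were 1 and 0, 97 and 411, and 360 and 294. Ranked by Col1a2 they were 36 and 3, 217 and 926, and 1004 and 1303. Ranked by Dcn they were 17 and 4, 252 and 900, and 1012 and 1199. Ranked by the other fibrillar collagen and leucine-rich proteoglycan genes they were 27 and 3, 190 and 721, and 1031 and 1140. With 5 samples a side they were 208 and 350, 447 and 1504, and 1684 and 2260; with 15 a side the last 4 counts were 37 and 116, and 56 and 37. Scaled to RPE markers on the same sides they were 0 and 1, 36 and 992, and 27 and 1083; ranked anew on that scale, 156 genes were 2-fold lower, with 219 and 89 by pairs. After regression on the rod level no gene was higher without overlap (0), 46 and 156 were 2-fold apart, and 170 and 163 passed by pairs. After regression on the muscle level these were 0, 42 and 167, and 156 and 140. Equal totals gave 3 genes higher without overlap and 638 and 602 by pairs, and centring on time points gave 4 higher without overlap. A pseudocount of 0.1 gave 438 and 1627 past 2-fold and 1 gene for eye. Requiring 1 FPKM in all samples gave 21 and 35 past 2-fold and 120 lower by pairs; 37.5% of 2-fold calls were then higher, against 19.1%, and 3.50% and 39.8% were under the scaling to RPE markers on the same and on new sides. The cause of these changes was not tested.

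Leaving out each sample in turn gave 1 to 2 and 0 to 1 genes without overlap, 81 to 111 and 313 to 494 past 2-fold, 316 to 457 and 221 to 410 by pairs, 11 to 16 genes for time points, 14 to 24 for the cosine and 0 to 5 for eye, the 5 without ZT0 replicate 5. Without ZT14 replicate 3 the counts of 2-fold genes were 108 and 339. The adjusted p for time point, eye and animal number stayed at 0.65 to 1, 0.65 to 1 and 0.174 to 1 when samples were left out, and at 0.0882 or more in the other settings tried. The median of the myelin list turned positive when samples were ranked by Col1a2 (0.28), that of surface epithelium when ranked anew after scaling to RPE markers (0.09), and that of adipocyte genes, 0.74 as deposited, turned negative in 5 settings (-0.78 to -0.13) and was 0.27 to 1.04 when samples were left out in turn. The unknown number of reads per gene limits all values of low genes.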

Other observations

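Genes of tendon, cartilage and bone, tissues that share matrix genes with the sclera, were higher on the Col1a1-high side in 11 of 14 compared members, with a median of 0.46. Tnmd, a tendon marker, differed by 0.61 and Cnmd, of cartilage, by 0.45, while Alpl, the bone phosphatase, differed by -0.38. The corneal stroma list, whose members are partly shared with sclera, had 4 of 6 higher. Of 12 genes of melanocytes and Schwann cells 8 were higher, with a median of 0.15. Lens genes were even, with 6 of 13 higher and a median of -0.02. Adipocyte genes were higher in all 6 compared members, yet Adipoq was listed at 0 in 2 high and 4 low samples and no member reached 80 of 100 pairs.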
